A study of Mus musculus with 8 samples.

Results

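The HoxA cluster genes are a row of homeobox transcription factor genes on mouse chromosome 6. Of 8 listed genes, Hoxa2, Hoxa7, Hoxa9 and Hoxa10 had a row in the count table and are described here, so that 4 of its 23481 genes are members. Hoxa3, Hoxa4, Hoxa5 and Hoxa6 were not analysed here. Members were chosen by name and not by any measured value. Hox genes are read in the order in which they lie: genes near the 3' end of a cluster are used in the hindbrain and neck region of the embryo, and genes toward the 5' end in the trunk and tail. The midbrain, where dopamine neurons arise, lies in front of the domain of Hox use, and Hox genes are silent there. Polycomb repressive complex 2 (PRC2), of which Eed is a core subunit, methylates a lysine of histone H3 at such silent genes, and the HoxA cluster is among its best known targets.

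Midbrain nuclei of adult mice were taken through flow cytometry, and their RNA was counted with the Single Cell 3' v3 kit of 10x, in which each transcript gives a tag near its 3' end that carries a unique molecular identifier (UMI). Both genotypes carry the strain name DatCreEed, which joins a Cre driver of the dopamine transporter gene (Slc6a3) with Eed. The wt group is a library pooled from 3 mice aged 8 months, 2 female and 1 male, and the PRC2 mutant group is a library pooled from 3 mice of the same age and the same sexes. The 8 samples are 4 sequencing lanes of each library, so each genotype is 1 library, without replicate, and no genotype difference could be tested. Genotype and library cannot be told apart, and nuclei cannot be assigned to single mice. Levels are CPM, the UMIs of a gene per 1000000 UMIs of a class of nuclei, and all intervals are exact 95% intervals that cover counting error only. Counts of 3' tags were not divided by gene length. A lower bound on a fold against a library with 0 UMIs uses 3 UMIs over the class of nuclei as its floor. Fewer transcribing nuclei and less RNA per nucleus cannot be told apart in these summed levels. Shares of nuclei are given beside them, but with so few UMIs per nucleus they rise with level and depth. They are thus not the fraction of nuclei that transcribe a gene and do not settle the point either.

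Nuclei were called dopamine nuclei where Th, Slc6a3, Slc18a2 and Ddc, the genes that make, take up and store dopamine, together reached 5 UMIs per 10000, and other nuclei where they did not. The wt library held 1320 dopamine nuclei (74.5% of 1772) and the mutant library 2875 (72.5% of 3968), with medians of 24257.5 and 19023 UMIs per nucleus. Other nuclei numbered 452 and 1093, with medians of 12471.5 and 14650 UMIs. Dopamine neuron regulators that the rule did not use were higher in dopamine nuclei, such as Pitx3 at 18.1 against 1.40 CPM in the wt library and 6.33 against 1.18 CPM in the mutant library. The 4 rule genes were lower in dopamine nuclei of the mutant library, from 0.390-fold for Slc6a3 to 0.791-fold for Ddc, so the same limit can place dopamine neurons of this library among the other nuclei; its part in the results was not tested. Slc6a3 is both the driver of Cre and a rule gene. Eed tags were at 21.4 CPM in wt and 41.3 CPM in mutant dopamine nuclei; the sources used here do not say which exons of Eed were removed, so these tags say nothing on the genotype labels. Mutant library is used here for the one that carries the mutant label. Of all barcodes, 4 occurred in both libraries.

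The 250 bases in front of each member's RefSeq start (build GRCm38.p6, the assembly behind mm10, minus strand) are shown because the members had 0 UMIs together in the wt library and the density of CG pairs is a sequence feature described at PRC2 targets. Capitals mark CG pairs. The Hoxa2 window is chr6:52164832-52165081, the Hoxa7 window chr6:52218574-52218823 and the Hoxa9 window chr6:52227371-52227620. Hoxa10 has a distal window at chr6:52240855-52241104 and a proximal window at chr6:52234940-52235189.
Hoxa2: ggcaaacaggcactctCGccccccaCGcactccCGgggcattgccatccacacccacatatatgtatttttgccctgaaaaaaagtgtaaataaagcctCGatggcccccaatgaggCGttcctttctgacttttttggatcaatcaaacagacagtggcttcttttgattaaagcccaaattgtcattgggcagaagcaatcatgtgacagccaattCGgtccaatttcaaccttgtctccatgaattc
Hoxa7: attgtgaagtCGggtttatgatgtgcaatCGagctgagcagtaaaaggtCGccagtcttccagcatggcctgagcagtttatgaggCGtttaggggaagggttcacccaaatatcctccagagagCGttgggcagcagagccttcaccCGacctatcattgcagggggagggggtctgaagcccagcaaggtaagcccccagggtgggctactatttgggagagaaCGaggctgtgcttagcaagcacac
Hoxa9: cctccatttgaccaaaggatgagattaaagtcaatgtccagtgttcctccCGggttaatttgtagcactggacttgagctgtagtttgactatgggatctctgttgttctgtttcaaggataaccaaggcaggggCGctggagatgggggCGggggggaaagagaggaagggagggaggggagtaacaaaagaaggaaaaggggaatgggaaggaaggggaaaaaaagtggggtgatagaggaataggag
Hoxa10 distal: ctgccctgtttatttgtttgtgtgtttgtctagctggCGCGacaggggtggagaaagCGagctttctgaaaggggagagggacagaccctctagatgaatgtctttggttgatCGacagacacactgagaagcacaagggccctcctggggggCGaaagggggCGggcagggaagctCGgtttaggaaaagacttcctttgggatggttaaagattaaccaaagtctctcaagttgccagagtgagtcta
Hoxa10 proximal: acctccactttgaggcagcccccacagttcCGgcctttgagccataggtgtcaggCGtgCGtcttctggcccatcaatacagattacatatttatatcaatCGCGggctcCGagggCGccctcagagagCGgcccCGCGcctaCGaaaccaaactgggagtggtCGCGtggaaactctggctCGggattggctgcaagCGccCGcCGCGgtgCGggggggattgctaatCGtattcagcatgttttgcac

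These windows were not alike in CG pairs. The Hoxa2 window held 6, the Hoxa7 window 7, the Hoxa9 window 3, the distal Hoxa10 window 7 and the proximal Hoxa10 window 20. Across 32841 windows of the same length in the same table the median was 6 CG pairs, and 18.0% held at least as many as the proximal Hoxa10 window. The starts of Hoxa7 and Hoxa9 in RefSeq lie inside the longer GENCODE models, so these windows are not the only possible starts. The motif TGATNNAT, a site type bound by Hox proteins together with Pbx proteins, was searched on both strands and matched once, in the Hoxa2 window; 7.69% of all windows held a match. A match is a description of letters and not a bound site.

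In dopamine nuclei each of the 4 members had 0 UMIs in the wt library and at least 132 in the mutant library. Hoxa9 and Hoxa7 were the most abundant, Hoxa10 came next, and Hoxa2 was far lower. The wt sum rested on 39383984 UMIs, at which 1 UMI is 0.0254 CPM and the floor is 0.0762 CPM.

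Hoxa2 (chr6:52162417-52164831, minus strand, GENCODE M21 on mm10), which patterns the hindbrain and the arch tissue next to it, had 0 UMIs in the wt library and 132 UMIs in the mutant library. Its mutant level was 1.92 CPM (1.61 to 2.28), at least 25.2-fold higher than wt. Another gene model on the same strand, Gm28308, covers 61.0% of Hoxa2, so tags there could have been split between the rows or dropped, and the Hoxa2 level is uncertain.

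Hoxa7 (chr6:52214491-52221854, minus strand), a gene of the trunk part of the cluster, had 0 wt UMIs and 1172 mutant UMIs. This is a mutant level of 17.0 CPM (16.1 to 18.1), at least 223.8-fold higher than wt. Hoxaas3, an antisense transcript, overlaps 586 of the 7364 bases of the Hoxa7 model on the opposite strand. The sources used here do not say whether the counting used strand.

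Hoxa9 (chr6:52223100-52231089, minus strand), known in adults for keeping blood stem cells dividing, had 0 wt UMIs and 1355 mutant UMIs. The mutant level was 19.7 CPM (18.7 to 20.8), at least 259-fold higher than wt, and no nucleus held more than 10 UMIs. Hoxa10 (chr6:52231197-52240854, minus strand), which patterns the lumbar spine and the uterus, had 0 wt UMIs and 927 mutant UMIs. Its mutant level was 13.5 CPM (12.6 to 14.4), at least 177-fold higher than wt. The models of Hoxa9 and Hoxa10 lie 107 bases apart, and transcripts that run from one into the other were not separated here.

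Summed over the 4 members, mutant dopamine nuclei had 3586 UMIs or 52.2 CPM (50.5 to 53.9), at least 685-fold above the wt library. With 5 CPM added to both levels, the log2 difference (mutant minus wt) was 0.47 for Hoxa2, 2.14 for Hoxa7, 2.31 for Hoxa9 and 1.89 for Hoxa10. By this measure, 3 of the 4 members were past 2-fold and Hoxa2 was not, although it had no wt UMI. Among the 16324 genes that reached 50 UMIs in dopamine nuclei, 0.956% were past 2-fold upward and 0.3% past 2-fold downward. The median log2 difference of the members was 2.01, against 0.02 for all genes tested. Of these genes, 0.496% had 0 wt UMIs, as all 4 members did. With 0 wt UMIs, the members reached 50 UMIs only through the mutant library. Their difference could thus only be positive, and setting it beside that of all genes is a description, not a test.

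**Figure D1:**
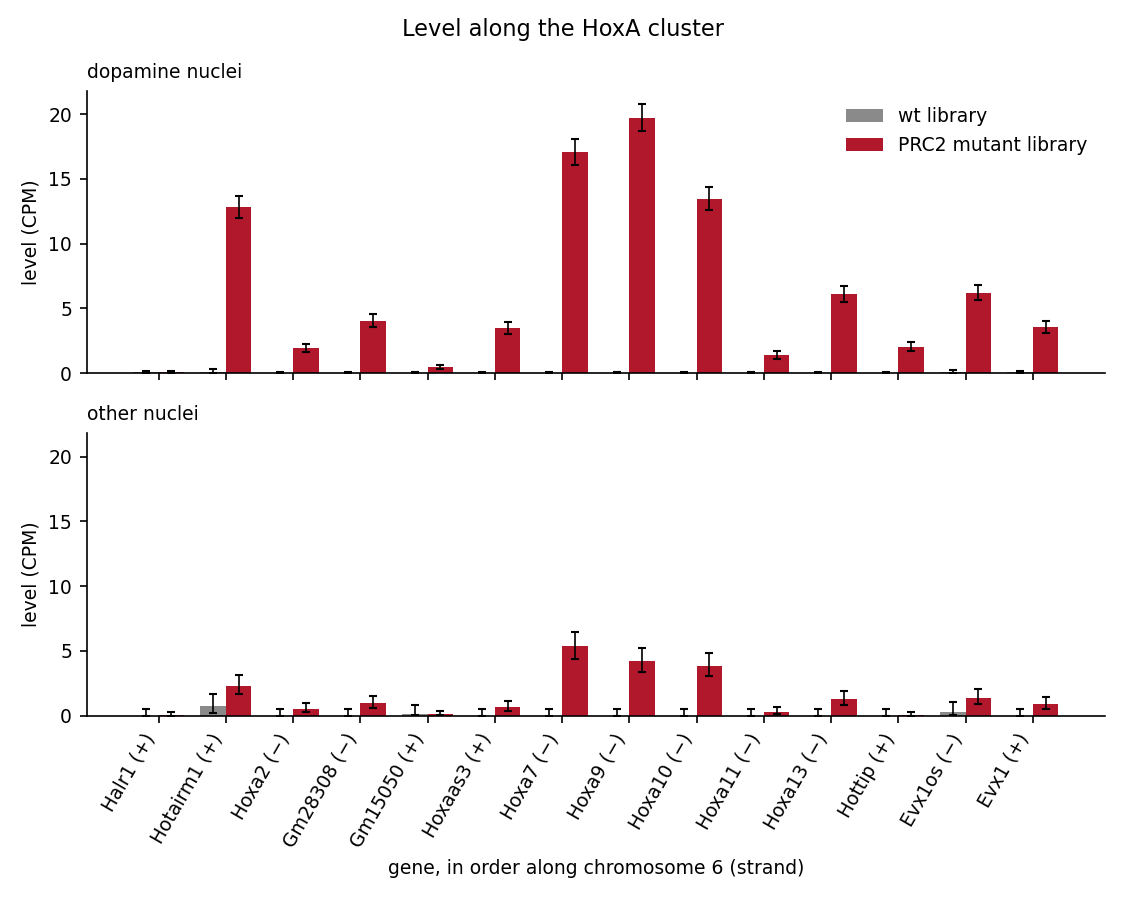
Level (CPM) of HoxA cluster genes and of the non-coding, Gm28308 and Evx1 genes around them, in order along chromosome 6. Dopamine nuclei are at the top and other nuclei at the bottom, with the wt library in grey and the PRC2 mutant library in red. Bars are summed levels and error bars exact 95% intervals for counting error; in mutant dopamine nuclei Hoxa7, Hoxa9 and Hoxa10 stand at 17.0, 19.7 and 13.5 CPM and the wt bars are at or near 0.

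Along the cluster the mutant level did not climb or drop steadily. Hoxa9 exceeded Hoxa7 by a ratio of 1.16 (1.07 to 1.25), Hoxa10 was at 0.684 (0.629 to 0.744) of Hoxa9, and Hoxa9 was 10.3 times (8.58 to 12.4) Hoxa2. Each neighbour in the order of levels, Hoxa9, Hoxa7, Hoxa10 and Hoxa2, thus differed beyond counting error in this library. Outside the members, Hoxa11 was at 1.38 CPM and Hoxa13, the last Hox gene of the cluster, at 6.10 CPM, both with 0 wt UMIs. Hoxa13 was 4.41 times Hoxa11, so the levels had a second, lower peak at the 5' end, as the plot of levels along the cluster shows. All of these values are tag counts in mutant dopamine nuclei.

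Non-coding transcripts and other genes in and beside the cluster were counted in the mutant library too. Hotairm1, on the plus strand at the 3' end, was at 12.8 CPM in mutant and 0.127 CPM (5 UMIs) in wt dopamine nuclei, a fold of 101 (43.1 to 312). It was thus close to Hoxa10 in tag count. Gm28308 is annotated as protein-coding, on the same strand as the members, and its model spans Hoxa3 to Hoxa6. It was at 4.03 CPM and the antisense transcript Hoxaas3 at 3.46 CPM, both with 0 wt UMIs. Hottip, at the 5' end beyond Hoxa13, was at 2.04 CPM with 0 wt UMIs. Evx1, a homeobox gene next to the cluster that is used in spinal cord interneurons, was at 3.53 CPM against 2 wt UMIs. Its antisense partner Evx1os, which overlaps it by 1335 bases, was at 6.23 CPM against 3 wt UMIs.

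The genes that flank the cluster differed less. Skap2, an adaptor protein gene on the 3' side, was at 29.9 CPM in wt and 59.8 CPM in mutant dopamine nuclei, a fold of 2.00 (1.87 to 2.13). In other nuclei Skap2 was at 42.5 and 42.9 CPM, and in those not rich in glial markers at 25.2 and 36.1 CPM (1.43, 1.21 to 1.71). Hibadh, an enzyme gene of valine breakdown on the 5' side, had a fold of 1.12 (1.08 to 1.17) in dopamine nuclei. Farther out, Snx10 was at 98.3 and 93.4 CPM, Tax1bp1 at 99.5 and 117 CPM, and Jazf1 at 352 and 351 CPM in wt and mutant dopamine nuclei. Halr1, a non-coding gene between Skap2 and the cluster, had 2 wt and 6 mutant UMIs. Across all 18 rows between and including Skap2 and Hibadh, 14 reached 50 UMIs in dopamine nuclei. With 5 CPM added, 6 were past 2-fold upward and 0 downward, against 0.956% and 0.3% of all genes tested. The 6 were the members Hoxa7, Hoxa9 and Hoxa10, and also Hoxa13, Hotairm1 and Evx1os, so no flanking gene was among them. Rows with 0 wt UMIs, such as the members and Hoxa13, reached 50 UMIs only through the mutant library. Their difference could only be positive, so these counts are a description, not a test.

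Most mutant dopamine nuclei with HoxA tags held few of them. Without any thinning, 1538 of 2875 (53.5%, 51.7 to 55.3%) held a UMI of a member, and the most in a nucleus was 15. Of all 2875, Hoxa9 was found in 29.7%, Hoxa7 in 28.8%, Hoxa10 in 23.1% and Hoxa2 in 4.24%. A nucleus with Hoxa9 held 1.59 UMIs of it on average, and one with Hoxa2 held 1.08. No wt dopamine nucleus of 1320 held a UMI of any member, which allows a share of up to 0.227%.

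At an equal depth of 2000 UMIs per nucleus, 255 of 2848 mutant dopamine nuclei (8.95%, 7.93 to 10.1%) kept a HoxA UMI. The share was 3.69% for Hoxa9, 2.98% for Hoxa7, 2.70% for Hoxa10 and 0.211% for Hoxa2. In the wt library 0 of 1285 dopamine nuclei did, which allows up to 0.233%. Thinning left out 27 mutant and 35 wt dopamine nuclei that were shallower. Nuclei rich in glial markers served as a class that should lack dopamine genes. Ddc, at 76.0% of mutant dopamine nuclei at this depth, was found in 9.38% of mutant and 11.4% of wt glia-rich nuclei. The other rule genes were at lower shares in the mutant ones, with Slc18a2 at 1.56%, Slc6a3 at 0.781% and Th in 0 of 128, against 12.5%, 9.09% and 0 of 88 in the wt library. Whether these tags came from free RNA, doublets or the nuclei themselves was not tested. HoxA UMIs were in 0 of 128 such mutant nuclei, which allows up to 2.34% by a count of 3 and 2.84% by the exact interval, and without thinning in 1 of 168 (0.595%), at a median depth of 2982.5 UMIs. The share in mutant dopamine nuclei was above both limits for the members together, with its whole interval, and for Hoxa9 (3.03 to 4.45%). The Hoxa7 share was above both, but its interval (2.39 to 3.68%) reaches under the exact limit. The Hoxa10 share lay between the limits (2.14 to 3.37%) and that of Hoxa2 below them, so these 2 members were not separable from the glia-rich nuclei at this depth.

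**Figure D2:**
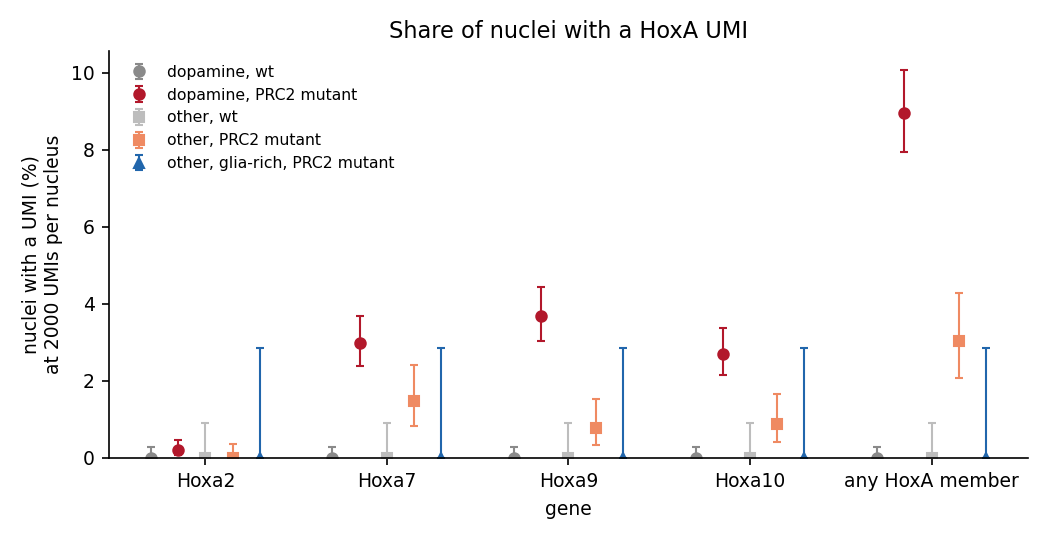
Share of nuclei (%) with a UMI of each HoxA gene, or of any of the 4, after thinning to 2000 UMIs per nucleus, by class of nuclei and library, with exact 95% binomial intervals. Mutant dopamine nuclei reach 8.95% for any member and mutant other nuclei 3.04%, while both wt classes and the glia-rich mutant nuclei are at 0.

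Other nuclei of the mutant library also carried HoxA tags, at a lower level. The 4 members summed to 271 UMIs or 13.9 CPM (12.3 to 15.7), against 0 UMIs in wt other nuclei, at least 33.2-fold higher. Hoxa7 was at 5.34 CPM (at least 12.8-fold higher than wt), Hoxa9 at 4.21 CPM, Hoxa10 at 3.85 CPM and Hoxa2 at 0.514 CPM (10 UMIs). Here the order was not resolved among the upper 3: Hoxa9 over Hoxa7 was 0.788 (0.583 to 1.06) and Hoxa10 over Hoxa9 was 0.915 (0.660 to 1.27). Of the members, 3 reached 50 UMIs and 1 of them, Hoxa7, was past 2-fold with 5 CPM added; of the 13491 genes tested, 0.282% were higher and 0.326% lower by that measure. The members' median log2 difference was 0.88 and that of all genes −0.01. Of the genes tested, 0.133% had 0 wt UMIs. Here too the members reached 50 UMIs only through the mutant library, so their difference could only be positive.

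Within the mutant library, dopamine nuclei had 3.75 times (3.31 to 4.25) the summed HoxA level of other nuclei. The ratio was 4.68 (3.74 to 5.92) for Hoxa9, 3.50 (2.76 to 4.49) for Hoxa10 and 3.19 (2.61 to 3.94) for Hoxa7. Hoxa9 made up 37.8% of member UMIs in dopamine nuclei and 30.3% in other nuclei, and Hoxa7 made up 32.7% and 38.4%. At 2000 UMIs per nucleus, 31 of 1020 other nuclei (3.04%, 2.07 to 4.29%) held a HoxA UMI. That share is above the 2.34% and 2.84% allowed by glia-rich nuclei, with an interval that reaches under both. The shares of single members, 1.47% for Hoxa7, 0.882% for Hoxa10 and 0.784% for Hoxa9, are under them, so for single members background was not separable at this depth.

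The HoxA level in the mutant library was higher in each range of the dopamine gene score than in the one below it up to 20 UMIs per 10000, and lower above that. Nuclei below 1 UMI per 10000 of the 4 rule genes had 4.45 CPM of HoxA tags, those from 1 to under 2 had 17.5 CPM, and those from 2 to under 5 had 27.1 CPM. Above the limit the level was 48.9 CPM from 5 to under 10, 55.1 CPM from 10 to under 20 (52.9 to 57.5) and 45.6 CPM (41.1 to 50.4) from 20 to under 40. The 7 mutant nuclei at 40 and over held 1 HoxA UMI. The wt library had 0 HoxA UMIs in every range of the score. Among other nuclei that were not rich in glial markers, 26.7% of the 460 with a score of 1 to under 5 held a HoxA UMI (25.1 CPM), against 7.31% of the 465 below 1 (4.58 CPM). Glia-rich nuclei below 1 held 1 HoxA UMI in 140 nuclei. Oligodendrocyte markers, 5 in the list, summed to 5124 CPM in glia-rich mutant nuclei and 173 CPM in the other nuclei that were not glia-rich.

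**Figure D3:**
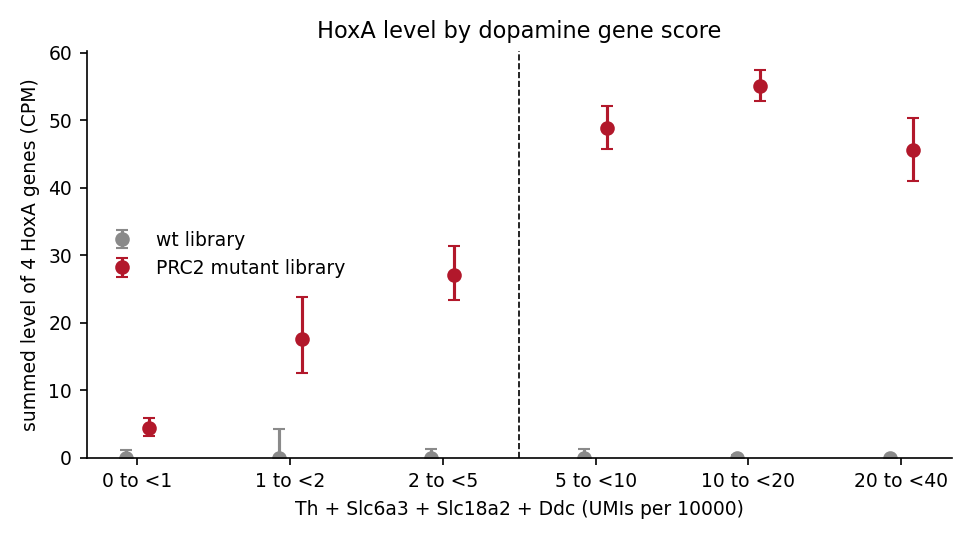
Summed level of the 4 HoxA genes (CPM) in nuclei binned by the summed dopamine genes (UMIs per 10000), in the wt (grey) and PRC2 mutant (red) library, with exact 95% intervals for counting error; the dashed line is the limit of 5 between other and dopamine nuclei. The mutant level goes from 4.45 CPM in the lowest bin to 55.1 CPM in the bin from 10 to under 20 and 45.6 CPM in the next, and the wt library is at 0 in all bins; the bin of 40 and over, with 7 mutant nuclei, is not drawn.

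The split of nuclei therefore sets the level of the other class. With the limit at 2 UMIs per 10000, mutant other nuclei had 6.86 CPM, and with the limit at 10 they had 31.5 CPM. The dopamine class moved less, to 49.9 and 53.5 CPM. Hoxa2 had 0 UMIs in other nuclei with the limit at 2, so its 10 UMIs lay in nuclei with a score from 2 to under 5.

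Members were often found alone and sometimes together. Without thinning, 843 mutant dopamine nuclei (29.3%) held 1 member, 487 (16.9%) held 2, 181 (6.30%) held 3 and 27 (0.939%) held all 4. Deep nuclei catch more of everything, so co-detection was counted after thinning to 5000 UMIs, in 2785 nuclei. Of these, 527 held 1 member, 62 held 2 and 7 held 3. Nuclei with 2 or more numbered 69, against 51.9 expected from the product of the members' shares, a ratio of 1.33 (1.03 to 1.68). Over 20 further random thinnings the ratio ran from 1.17 to 1.61, with a mean of 1.39.

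The pairs differed little beyond their error. Hoxa7 and Hoxa10 were found together in 28 nuclei against 13.9 expected, a ratio of 2.02 (1.34 to 2.92). Hoxa9 and Hoxa10, whose models are nearest to each other, shared 24 nuclei against 15.02, a ratio of 1.60 (1.02 to 2.38). Hoxa7 and Hoxa9 shared 28 nuclei against 20.6, a ratio of 1.36 (0.905 to 1.97). Each pair with Hoxa2 was seen in 1 nucleus at this depth, which gives no usable ratio. With the dopamine limit at 10 the ratio over all members was 1.17 (0.846 to 1.57), an interval that includes 1. These counts come from the nuclei of 1 library and describe that library. In sparse counts ratios of this size are weak.

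**Figure D4:**
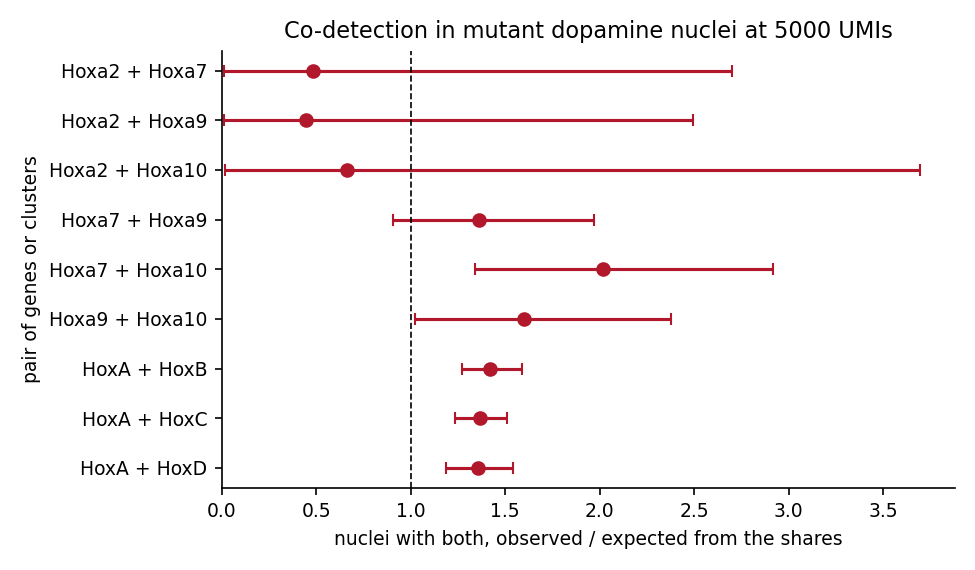
Nuclei with both members of a pair divided by the number expected from the separate shares, in mutant dopamine nuclei thinned to 5000 UMIs, for pairs of HoxA genes and for any HoxA member with any gene of the HoxB, HoxC or HoxD cluster, with exact intervals for counting error. The dashed line at 1 is independence; Hoxa7 with Hoxa10 is at 2.02 and the 3 cluster pairs lie between 1.35 and 1.42.

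HoxA tags were also found with tags of the other 3 Hox clusters. At 5000 UMIs, 53.5% of the 596 mutant dopamine nuclei with a HoxA member held a HoxB tag, against 33.3% of the 2189 without, a ratio to expectation of 1.42 (1.27 to 1.59). For HoxC the shares were 65.3 and 43.1% (ratio 1.36, 1.23 to 1.51), and for HoxD 38.3 and 25.5% (ratio 1.35, 1.18 to 1.54). The clusters lie on different chromosomes. These ratios of 1.35 to 1.42 pair any HoxA member with any gene of a whole cluster. The 1.33 among HoxA members counts nuclei with 2 or more single genes, so the sizes of these ratios cannot be compared directly. Nuclei with a HoxA member were somewhat deeper before thinning, with a median of 21535.5 against 18887 UMIs, while their median dopamine score was 13.4 against 13.7 UMIs per 10000.

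In level, the 4 HoxA members summed to less than any of the other 3 clusters in mutant dopamine nuclei, at 52.2 CPM; Hoxa3 to Hoxa6 are not in that sum. HoxC summed to 241 CPM, HoxB to 143 CPM and HoxD to 82.4 CPM, which is 4.62, 2.73 and 1.58 times the sum of the 4 HoxA members. Among 31 Hox genes with a row, Hoxa9 ranked 7, Hoxa7 ranked 8, Hoxa10 ranked 11 and Hoxa2 ranked 22. Hoxc4 ranked first, at 118 CPM. The ratio of dopamine to other nuclei was 6.87 (6.22 to 7.60) for HoxB, 6.54 (6.07 to 7.06) for HoxC and 4.08 (3.68 to 4.53) for HoxD, against 3.75 (3.31 to 4.25) for the HoxA members. The HoxB and HoxC intervals do not overlap that of the HoxA members, and the HoxD interval does.

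Paralogs, genes of the same rank in different clusters, had unlike levels. Hoxa7 was 14.7 times (11.7 to 18.6) Hoxb7, and Hoxa10 was 48.8 times (31.1 to 81.4) Hoxc10 but 0.664 (0.610 to 0.722) of Hoxd10. Hoxa9 was 2.82 times (2.54 to 3.13) Hoxb9 and 2.60 times (2.35 to 2.88) Hoxd9. Hoxa2 and Hoxb2 did not differ beyond counting error, with a ratio of 0.80 (0.631 to 1.01). All of these paralogs had 0 wt UMIs in dopamine nuclei. The level in mutant dopamine nuclei therefore did not go by paralog rank across clusters.

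Genes outside the Hox clusters were at most weakly tied to HoxA detection by the phi coefficient. Over 8583 genes found in at least 5% of the 2785 thinned nuclei, the phi coefficient with any HoxA UMI had a median of 0.00333 and a range of −0.0621 to 0.0649 from the 1st to the 99th percentile. The highest were Col25a1 (0.143), Vax2os (0.135), Pax3 (0.1204), Mctp2 (0.118) and Cntn4 (0.108). Their ratios to expectation, in the same order, were 1.23, 1.44, 1.36, 1.54 and 1.12. Those of HoxB, HoxC and HoxD were 1.42, 1.36 and 1.35. By ratio, Vax2os, Pax3 and Mctp2 thus lay within or above the range of the other Hox clusters. Pax3, a transcription factor gene of the dorsal neural tube, was found in 39.8% of nuclei with a HoxA member and 26.4% of those without. Vax2os, a non-coding RNA beside the eye-patterning gene Vax2, was in 37.4 and 22.9%. Pax3 and Vax2os had 7 and 6 wt UMIs and 98.7 and 76.6 CPM in mutant dopamine nuclei, whereas Col25a1, a membrane collagen gene, was at 1067 CPM in wt and 856 CPM in mutant dopamine nuclei. The lowest were Kcnh7 (−0.126), Ndst3 (−0.123) and Cadm1 (−0.122). Kcnh7, a potassium channel gene, was found in 28.2% of nuclei with and 43.3% of nuclei without a HoxA member. Coefficients of this size are weak, and the nuclei share a library.

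Dopamine neuron genes were compared between mutant dopamine nuclei with and without a HoxA UMI, both thinned to 5000 UMIs. The 12 listed genes summed to 2244 CPM with and 2293 CPM without, a ratio of 0.979 (0.952 to 1.01), but that sum holds the 4 genes by which the nuclei were chosen. Without those 4, the sums were 843 and 816 CPM, a ratio of 1.03 (0.988 to 1.08). Slc18a2, the vesicle transporter and a rule gene, was at 297 against 346 CPM (0.858, 0.797 to 0.923), and Drd2, the dopamine autoreceptor, at 252 against 213 CPM (1.18, 1.09 to 1.28). The midbrain regulator En1 was at 29.2 against 37.0 CPM (0.789, 0.618 to 0.997). The other listed regulators had intervals that include 1: Pitx3 (1.03), Nr4a2 (0.998), Lmx1b (0.970) and Foxa2 (0.844). So did Th, Slc6a3, Ddc, Aldh1a1 and Ret. Genes of other transmitters did not all go one way. Slc17a6, a vesicular glutamate transporter, was at 21.1 against 36.5 CPM (0.578, 0.436 to 0.756). Slc17a7, the other listed glutamate gene, went the other way, at 1.68 against 0.183 CPM, a ratio of 9.18. That ratio rests on 5 against 2 UMIs, and its interval lies above 1 but reaches 96.4. Gad1, which makes GABA, was at 115 against 86.1 CPM (1.34, 1.18 to 1.51). The other 2 listed GABA genes had ratios with intervals that include 1, at 0.964 (0.831 to 1.12) for Gad2 and 0.918 (0.524 to 1.53) for Slc32a1. Over all dopamine nuclei Gad1 was at 4.29 CPM (wt) and 99.4 CPM (mutant). Oligodendrocyte markers summed to 134 CPM with and 161 CPM without a HoxA UMI (0.830, 0.743 to 0.926), and the part of free or glial RNA in these differences was not tested.

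Among mutant other nuclei the 60 with a HoxA UMI at 5000 UMIs were compared with the 833 without. The 8 dopamine neuron genes outside the rule summed to 320.0 against 214 CPM, with an interval of 1.20 to 1.85 for the ratio, and single genes differed in direction. Ddc was at 187 against 83.3 CPM (2.24, 1.66 to 2.98), and Lmx1b, a dopamine neuron regulator, was at 47.5 CPM without and 2.10 times that level with a HoxA UMI. Drd2 was at 70.0 against 25.2 CPM (2.78, 1.65 to 4.47). Intervals that include 1 were found for Th (0.926), Slc18a2 (0.940), Nr4a2 (1.08, 0.617 to 1.77), Slc6a3 (2.24), En1 (1.93), Pitx3 (2.78) and Ret (1.43), and Foxa2 had 0 UMIs with and 8 without. Aldh1a1, a marker of ventral nigral dopamine neurons, went the other way, at 3.33 CPM (1 UMI) against 27.6 CPM (0.121, 0.00303 to 0.686). Gad2, the other enzyme that makes GABA, was at 297 against 143 CPM (2.07, 1.64 to 2.59), Slc32a1 had a ratio of 3.74 (1.37 to 8.84) and Gad1 one of 1.31 (0.846 to 1.94). Oligodendrocyte markers summed to 230.0 against 432 CPM (0.532). Ddc belongs to the rule that splits the classes, and its part in this difference was not tested.

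Genes of proteins that bind DNA together with Hox proteins were present in both libraries. Of the 9 listed Pbx, Meis and Pknox genes, all 9 reached 50 UMIs in dopamine nuclei. With 5 CPM added, 1 was past 2-fold upward and 0 downward, with a median log2 difference of 0.13. Of all genes tested, 0.956% were past 2-fold upward and 0.3% downward. The higher cofactor gene was Meis2, at 14.6 CPM in wt and 55.0 CPM in mutant dopamine nuclei, a fold of 3.77 (3.45 to 4.12). In other nuclei Meis2 was at 180.1 CPM in wt and 135 CPM in mutant. Meis1 was at 28.4 and 43.1 CPM in dopamine nuclei, a fold of 1.52 (1.41 to 1.63). Pbx3 was at 1242 and 939.8 CPM, a fold of 0.757. Meis2 was found in 23.2% of thinned mutant dopamine nuclei with a HoxA member and 15.6% of those without.

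Genes that set Hox domains in the embryo were counted by the same measure. Of 17 listed retinoic acid, Cdx and trithorax genes, 15 had a row and 11 reached 50 UMIs in dopamine nuclei. With 5 CPM added, 0 of the 11 were past 2-fold in either direction. That is near the share over all genes tested, 0.956% upward and 0.3% downward, and is no result about this list. Cdx2, which switches on trunk Hox genes in the tail bud, had 0 wt UMIs and 151 mutant UMIs (2.20 CPM), too low to pass that measure. Cyp26b1, which breaks down retinoic acid, was at 3.58 CPM in wt and 0.626 CPM in mutant dopamine nuclei. This is a fold of 0.175 (0.121 to 0.247) without the added 5 CPM, at levels also too low to pass that measure. Aldh1a1, which makes retinoic acid, was at 187 and 96.1 CPM, a fold of 0.513 (0.496 to 0.530). Kmt2a, the trithorax enzyme that keeps HoxA genes active in blood cells, was at 326 and 384 CPM, a fold of 1.18 (1.15 to 1.20). In other nuclei 9 genes of each list were tested and 0 were past 2-fold in either direction. Of all genes tested there, 0.282% were past 2-fold upward and 0.326% downward.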

How the data were processed

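Libraries of nuclei from adult mouse midbrain were made with the 10x Single Cell 3' v3 kit after sorting, per the labels' protocols. Cell Ranger 3.1.0 and mm10 are listed, without their roles, per the submitters' processing notes. The authors deposited 1 table of whole-number UMI counts, not normalized, of 23481 genes in 5740 nuclei, and the start of each column name gives the library; which nuclei or genes were removed beforehand, and whether introns or strand were used in counting, are points on which the sources used here are silent. The lowest and highest totals per nucleus were 621 and 127151 UMIs. Lanes are not kept apart in the table, and doublets were not removed.

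Counts were summed per class of nuclei and library with Python 3.11.15, numpy 2.4.6 and scipy 1.17.1, and plotted with matplotlib 3.10.9. CPM used exact Poisson intervals, folds the exact binomial split of the counts, and shares exact Clopper-Pearson intervals, all at 95%. A floor of 3 UMIs stood for 0. Thinning drew 2000 or 5000 UMIs per nucleus without replacement. Genes were counted at 2-fold with 5 CPM added and at least 50 UMIs over both libraries. Expected co-detection is the product of shares. Glia-rich nuclei are other nuclei with more UMIs of the glial and vascular lists than of the pan-neuronal list. The code was tested on simulated data. Gene positions came from GENCODE M21 (mm10) and promoter windows from RefSeq, matched by symbol; all 4 members matched.

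Named genes were the members, the annotated genes from Skap2 to Hibadh and next to them, listed cofactors and regulators, paralogs, the 5 genes with the highest and the 3 with the lowest phi, and marker list genes. Marker genes named within a list, the Hoxc4 value and the genes compared between nuclei with and without HoxA tags were chosen after their values were seen. Some annotated or listed genes are not reported here. The members and lists were chosen with earlier results of these data known. No test was run, since each genotype is 1 library.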

Additional observations from a re-analysis of the deposited data

How the results depend on the processing

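Depth limits the low values: 1 UMI is 0.0254 CPM in wt dopamine nuclei, and a share of nuclei rises with the depth at which it is taken. With the dopamine limit at 2 UMIs per 10000 the summed HoxA level was 49.9 CPM in mutant dopamine nuclei (52.2 CPM as reported) and 6.86 CPM in mutant other nuclei (13.9 CPM as reported), and with the limit at 10 the latter was 31.5 CPM. The share of mutant dopamine nuclei with a HoxA UMI was 21.4% at 5000 UMIs and 53.5% without thinning, against 8.95% at 2000 UMIs, as more UMIs per nucleus are read. The co-detection ratio was 2.09 at 2000 UMIs, from 18 nuclei in 1 draw. Over 20 further draws there it ran from 0.704 to 2.51, with a mean of 1.46. At 5000 UMIs the mean over 20 further draws was 1.39. The cause of the higher first value was not tested. Genes at least 2-fold higher in mutant dopamine nuclei numbered 348 with 1 CPM added, against 156 with 5 CPM. The other alternatives for these 5 results stayed within the 95% counting interval, or within 1.5 times for the count of genes: other scaling, equal weight per nucleus, nuclei with at least 1000 genes, leaving out the 5% of nuclei with the most UMIs, and other filters. Levels of single members are not among these 5 results. In mutant dopamine nuclei Hoxa10 was at 12.4 CPM with equal weight per nucleus, below its interval of 12.6 to 14.4. Hoxa9 was at 18.5 CPM there with the limit at 2, below its interval of 18.7 to 20.8. Hoxa2 and Hoxa7 stayed within their intervals. In mutant other nuclei each member moved with the limit at 2 and at 10. Leaving out the barcodes found in both libraries and repeating the thinning were chosen after seeing the data. No paired analysis was possible because the lanes share numbers but are not kept apart in the table, and each genotype is 1 library; for the same reason no lane could be left out.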
